A study of Mus musculus with 4 samples.

Results

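Cytosolic ribosomal protein genes were examined in salivary glands (SGs) of mice labelled as lacking MyD88, the adaptor of most Toll-like receptors and of the IL-1 receptor. The genes were chosen by name from the probes that are not controls, as Rpl or Rps followed by digits and at most a single letter x, a, l or y, together with Rplp0, Rplp1, Rplp2 and Rpsa, with pseudogene names and the Rps6k kinases left out. This gave 80 genes with 183 probes, of which 79 genes were tested among 22312 genes in all. Their role as ribosomal proteins rests on their names and was not used as a result.

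The groups were 2 arrays labelled Myd88-KO, here *Myd88*-/-, and 2 arrays labelled Wildtype, here *Myd88*+/+, all from C57/BL6 mice at 10 weeks of age that the labels give as female. The labels name the tissue as submandibular glands (SMGs) plus sublingual glands (SLGs), and the study's methods describe the null allele as backcrossed to C57BL/6 and the mice as offspring of heterozygous parents. The null allele is present in every cell of the body, so gland cells and immune cells both lack it. The study's array legends name SMGs alone and more samples per genotype than are deposited, and do not say whether an array holds RNA of a single mouse, so p-values measure the spread between these samples, which may be partly technical. All arrays lay on the same slide and came from the same scan.

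Each probe was read as a log2 signal after subtracting that array's 75th percentile, so that 0 is the brightness of the 75th percentile and each step of 1 means 2 times the signal. A log2 difference is the mean of the arrays labelled *Myd88*-/- minus the mean of those labelled *Myd88*+/+. A gene was tested when both arrays of some label showed a probe well above background, and its brightest such probe stood for it. Standard errors are abbreviated SE, and adjusted p-values are from limma, a linear model that pools information on the spread over genes. Of the 80 members, 77 were well above background on all 4 arrays. Rpl3l and Rpl39l were tested although dim on some arrays, and Rpl10l was not tested. Probes well above background made up 52.2% and 68.4% of all probes under the *Myd88*-/- label and 74.2% and 55.1% under the *Myd88*+/+ label. Dim probes are thus seen best on *Myd88*-/- array 2 and *Myd88*+/+ array 1.

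The cytosolic ribosome is built from a large and a small subunit, each a scaffold of ribosomal RNA carrying many different proteins, most of them in a single copy. Their messages begin with a run of pyrimidines, the TOP motif, through which the mTOR pathway and its effector Larp1 set their translation together. Acinar cells of SGs make and secrete large amounts of protein and are rich in ribosomes bound to the endoplasmic reticulum.

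The targeted gene was looked at first. Log2 signals of Myd88 were 1.51 and 1.41 under the *Myd88*-/- label and 1.15 and 1.07 under the *Myd88*+/+ label. The signal was thus not lower under the null label (log2 difference 0.35, adjusted p = 0.264 from limma). The sources used here do not place this probe inside or outside the deleted exons, so it does not check the labels, and groups are named by their labels throughout.

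Markers of the labelled tissue were bright on every array. Scaled signals of a list's tested genes were added up and the total put in log2, so its brightest genes weigh most. For the 10 genes tested of the submandibular acinar list, led on average by Dcpp2, this gave 13.06 and 13.08 under the *Myd88*-/- label. Under the *Myd88*+/+ label it gave 12.59 and 12.68. The list includes Dcpp1, Dcpp2 and Dcpp3, named for demilune cells and the parotid gland, so it may not mark submandibular acini alone. The 10 granular duct genes, led by Klk1, summed to 11.62 and 11.59 against 11.43 and 11.63, and the 4 of 6 sublingual genes that were tested, led by Muc19, to 8.66 and 8.46 against 8.61 and 8.75. All 10 genes of the acinar list were higher under the *Myd88*-/- label, with a median log2 difference of 0.36. Among them Smgc differed by 1.57, and Dcpp1, Dcpp2 and Dcpp3 by 0.30, 0.34 and 0.32. With quantile normalization the median was 0.08 and 8 were higher. In limma 7 of the 10 had an unadjusted p under 0.05 and were higher, against 9.82% of all genes. After adjustment 0 were called, 3 with trended and robust spread (2.16% of all genes) and 1 with normexp (0.354%). The medians of the duct and sublingual genes were -0.05 and 0.07, or -0.19 and -0.01 with cyclic loess and -0.22 and 0.00 with quantile normalization. The glands named by the labels were present on all 4 arrays.

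Ribosomal protein genes formed a bright and even set whose members differed little between the labels. The median log2 signal of the 79 tested members was 7.38 and 7.29 under the *Myd88*-/- label and 7.26 and 7.20 under the *Myd88*+/+ label. The median log2 difference was 0.10, against 0.06 over all 22312 genes, though it lay below that of all genes with normexp (0.04 against 0.07), quantile normalization (0.01 against 0.02), cyclic loess (-0.03 against -0.01), no filter (0.10 against 0.12) and *Myd88*-/- array 1 left out (0.07 against 0.08). In all, 73 of the 79 members (92.4%) differed by less than 0.25 log2 units, as did 59.4% of all genes. In limma's test with Benjamini-Hochberg adjustment over all genes, 0 of the 79 members were called at an adjusted p of 0.05, where the share over all genes was 0%, and the smallest adjusted p among the members was 0.206. Without adjustment 3 members had p under 0.05 and were higher under the *Myd88*-/- label, against 9.82% of all genes, and 2 were lower, against 6.83%. The higher ones were Rps19, Rps27l and Rplp0, and the lower ones Rpl3l and Rpl39l. Both lower ones were tested only because of the *Myd88*+/+ arrays, where they are higher. With only genes well above background on all 4 arrays 3 members were higher and 0 lower, against 11.6% and 6.68% of all genes. With the same adjustment the methods' t-test and limma with a trended and robust spread also called 0 members, against 0.00448% and 2.16% of all genes, and limma after median scaling called 1, Rpl3l, against 1.80%. Without adjustment the methods' t-test gave 13 higher and 1 lower members, against 9% and 4.15% of all genes. In limma 0 members were past unadjusted p with quantile normalization (all genes 7.62% higher and 7.44% lower) and cyclic loess (8.11% and 9.80%). With median scaling (1.08% and 3.38%), replicate blocks (5.55% and 5.25%) and crossed blocks (10.4% and 8.25%) 0 were higher and 2 lower.

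The members lay slightly to the same side. A positive log2 difference was found for 74 of 79 members (93.7%), against 59.6% of all genes, but with cyclic loess normalization the count was 23 of 77 and the median -0.03. Arrays of the same label also differed mostly to a single side. *Myd88*-/- array 1 was above array 2 for 63 members (median 0.06), and *Myd88*+/+ array 1 above array 2 for 60 (median 0.04). Both *Myd88*-/- arrays lay above both *Myd88*+/+ arrays for 54 members, against 33.2% of all genes, and below them for 4, against 18.7%. The median was 0.01 with quantile normalization, 0.04 with the percentile taken over detected probes and 0.05 with median scaling, and ran from 0.07 to 0.13 when single arrays were left out. Genes of the acinar list lay on the same side as the members with the 75th percentile, and their part in this common difference was not tested. The median SD between arrays of a label was 0.05 log2 units for the members and 0.14 for all genes, which include many dimmer probes.

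**Figure D1:**
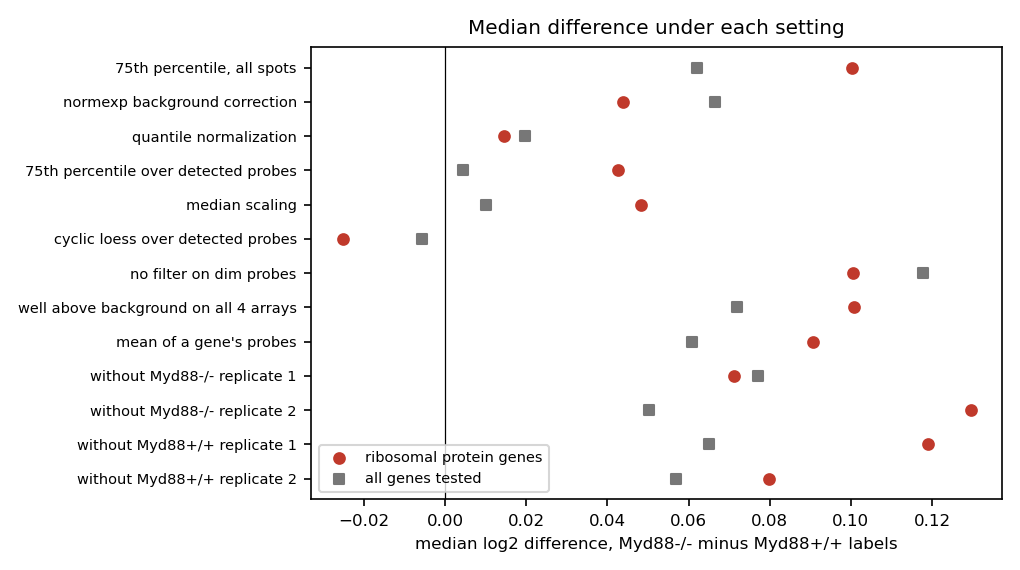
Median log2 difference (labelled *Myd88*-/- minus labelled *Myd88*+/+, horizontal axis) of the tested ribosomal protein genes (circles) and of all genes tested (squares) under each processing setting (vertical axis). The circles run from -0.03 with cyclic loess to 0.13 without *Myd88*-/- replicate 2.

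The share of each array's total signal gave no side to the set. This share takes the total as its scale, to which bright genes such as those of the acinar list add. The brightest probes of the 79 members carried 4.91% and 4.89% of the summed processed signal under the *Myd88*-/- label, and 5.07% and 4.73% under the *Myd88*+/+ label. The *Myd88*+/+ arrays lay on either side of both *Myd88*-/- arrays. The difference of the means, 0.00 percentage points, did not reach the SD of 0.24 among the *Myd88*+/+ arrays. With 2 arrays per label, the smallest p of an exact permutation test is 0.333.

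Large and small subunits did not part. The 48 tested genes of the large subunit had a median log2 difference of 0.10 with 46 higher, and the 31 of the small subunit 0.10 with 28 higher. Neither count kept its majority with cyclic loess, which gave 11 of 46 and 12 of 31. The difference between the subunits was not tested.

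The stalk of the large subunit, a flexible arm that recruits elongation factors, is made of Rplp0 with pairs of Rplp1 and Rplp2. Rplp0 had log2 signals of 8.94 and 8.91 under the *Myd88*-/- label and 8.65 and 8.63 under the *Myd88*+/+ label. Both *Myd88*-/- arrays exceeded both *Myd88*+/+ arrays, by more than the SDs of 0.02 and 0.02 (n = 2 each). Rplp0 has 3 probes at the end of its transcript on chromosome 5, the brightest at chr5:116013404-116013463 (mm9, + strand) and another at chr5:116013397-116013456. These overlap over 53 bases and are shown because they read nearly the same stretch in different spellings. Capitals mark the bases at which the probes differ, which, counted from 1 at the 5′ end of the brightest probe with its base first, are G8A, A10T, G24A, T35C and T44C.
Rplp0 brightest probe: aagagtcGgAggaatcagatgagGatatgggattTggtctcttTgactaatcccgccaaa
Rplp0 overlapping probe: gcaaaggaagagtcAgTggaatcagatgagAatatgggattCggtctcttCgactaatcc

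All 3 Rplp0 probes gave nearly the same difference. The log2 difference was 0.28 for the brightest probe, 0.32 for the overlapping probe and 0.30 for the third, which lies further along the transcript. For the gene this was 1.22-fold (SE 0.10 on the log2 scale, 95% interval 0.01 to 0.56, adjusted p = 0.289 from limma), and the log2 difference was 0.14 with cyclic loess and 0.18 with quantile normalization. Rplp0 has many processed copies in the mouse genome, and probes with such differences in spelling may take signal from more than a single locus.

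The partners of Rplp0 in the stalk were closer to level. Rplp1 had log2 signals of 8.15 and 8.09 against 8.02 and 8.06. Rplp2 had 8.12 and 8.09 against 8.09 and 8.12. The arrays of both labels overlapped for Rplp2, and for Rplp1 they were only just apart. The log2 differences were 0.08 for Rplp1 (95% interval -0.20 to 0.36) and 0.00 for Rplp2 (-0.27 to 0.28), and that of Rplp1 turned negative with quantile normalization and cyclic loess. Whether the stalk proteins differ from each other was not tested.

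Among members of the small subunit, Rps19 and Rps27l stood above the rest. Rps19 is needed to mature the 3′ end of the small subunit's RNA, and its human counterpart is mutated in Diamond-Blackfan anaemia. Rps27l is a close copy of Rps27 and a known target of p53. Their probes are shown because each gene was read by a single probe, that of Rps27l spanning introns over 1691 genomic bases at chr9:66795486-66797176 and that of Rps19 lying in an unbroken stretch at chr7:25670166-25670225 (mm9, + strand both). No part is marked by capitals.
Rps27l probe: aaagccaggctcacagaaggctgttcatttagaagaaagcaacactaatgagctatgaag
Rps19 probe: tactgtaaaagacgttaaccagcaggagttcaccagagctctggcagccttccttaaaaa

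Rps19 had log2 signals of 5.56 and 5.62 under the *Myd88*-/- label and 5.17 and 5.29 under the *Myd88*+/+ label. Rps27l had 6.85 and 6.85 against 6.53 and 6.53. The labels were well apart for both genes, and Rps27l was almost the same on arrays of the same label. The log2 difference was 0.36 for Rps19, or 1.28-fold (SE 0.11, 95% interval 0.05 to 0.67, limma adjusted p = 0.262), and 0.32 for Rps27l, or 1.25-fold (SE 0.09, 95% interval 0.05 to 0.59, limma adjusted p = 0.260). Neither passed the threshold in limma under any setting tried.

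Rps27l, Rps19 and Rplp0 were also higher relative to the other ribosomal proteins of the same array, a contrast that no shift of an array can change. Relative to the median member of its array, Rps27l stood at -0.54 and -0.44 under the *Myd88*-/- label and at -0.73 and -0.67 under the *Myd88*+/+ label. Rps19 stood at -1.82 and -1.67 against -2.09 and -1.90, and Rplp0 at 1.55 and 1.62 against 1.40 and 1.43. The labels did not overlap in any of the 3 genes, which had been picked for their size and for being apart. The relative differences were 0.21, 0.25 and 0.18 log2 units.

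Rps14 and Rpl5 complete the 5 largest positive differences among members whose arrays were apart. Rps14, a core protein of the small subunit's platform, had log2 signals of 9.28 and 9.38 against 9.07 and 9.05. Its log2 difference of 0.27 (SE 0.10, limma adjusted p = 0.316) was 0.08 with quantile normalization. Rpl5, which binds 5S ribosomal RNA, had 6.23 and 6.05 against 5.92 and 5.92, for a log2 difference of 0.22 (SE 0.11, limma adjusted p = 0.430) that was 0.11 with cyclic loess and 0.13 without *Myd88*-/- replicate 1. The *Myd88*-/- arrays were the higher ones in both genes, with Rpl5 less even between them.

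**Figure D2:**
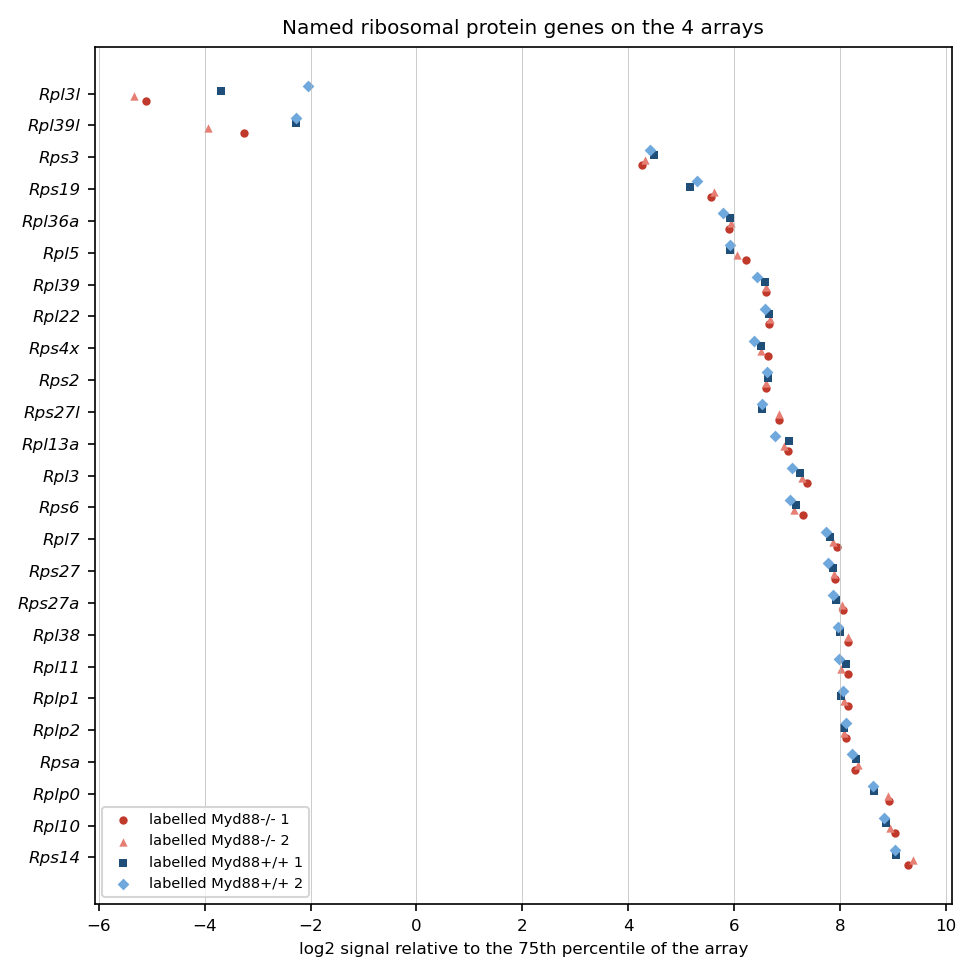
Log2 signal (horizontal axis, relative to the 75th percentile of the array) of 25 named members (vertical axis, sorted to be legible) on the 4 arrays. Most members show 4 symbols close together, whereas Rpl3l and Rpl39l are dim and lower under the *Myd88*-/- label, at -5.11 and -5.34 against -3.70 and -2.05 for Rpl3l.

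On the other side, Rps3 and Rps2 were lower on both *Myd88*-/- arrays, among members well above background on all 4 arrays. Rps3 was the dimmest of those members. Relative to the median member it stood at -3.13 and -2.98 against -2.78 and -2.78. Rps3, which sits at the entry of the messenger channel and also acts in DNA repair, had log2 signals of 4.26 and 4.31 against 4.48 and 4.42. Rps2, its neighbour there, had 6.61 and 6.61 against 6.64 and 6.63. The gap was small in both, with log2 differences of -0.17 (SE 0.10, limma adjusted p = 0.475) and -0.03 (SE 0.10, limma adjusted p = 0.915). The 3 Rps3 probes did not give the same side, at -0.17, -0.27 and 0.36, with mean log2 signals of 4.37, 3.26 and 1.89. The other Rps2 probe was nearly as bright and differed by -0.02, with overlapping labels.

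Further members have a known second role. Rpl11, which with Rpl5 binds and restrains Mdm2 when ribosome building fails, had log2 signals of 8.16 and 8.03 against 8.12 and 7.99. Rps6, the phosphorylated target of S6 kinase, had 7.31 and 7.13 against 7.18 and 7.07. In both the labels overlapped, with log2 differences of 0.04 (95% interval -0.29 to 0.37) and 0.10 (-0.25 to 0.45). Rpl13a, part of a complex that silences inflammatory messages after interferon-γ, had 7.03 and 6.94 against 7.03 and 6.78. Rpsa, also known as the laminin receptor, had 8.29 and 8.34 against 8.30 and 8.22. Their log2 differences of 0.08 and 0.06 were within the spread between arrays, and each turned negative with cyclic loess, as did those of Rpl11 and Rps6. Rps27a, made as a fusion to ubiquitin, differed by 0.15, and Rpl38, which aids translation of Hox messages, by 0.17. With cyclic loess these values were 0.02 and 0.03. Mdm2 itself differed by -0.06 (limma adjusted p = 0.819).

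Some members have a tissue-restricted copy, of which Rpl3l and Rpl39l were dim and lower under the *Myd88*-/- label. Neither was well above background on both *Myd88*-/- arrays, so the size of their differences cannot be ranked against other members. Rpl3l replaces Rpl3 in skeletal and heart muscle. Its single probe crosses an exon junction at chr17:24872413-24872681 (mm9, + strand) and is shown because the gene was read by it alone, with no part in capitals.
Rpl3l probe: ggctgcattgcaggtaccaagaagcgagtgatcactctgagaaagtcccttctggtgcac

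Rpl3l had log2 signals of -5.11 and -5.34 under the *Myd88*-/- label and -3.70 and -2.05 under the *Myd88*+/+ label. It was well above background on both *Myd88*+/+ arrays and on neither *Myd88*-/- array. Only a bound can be given, for which each *Myd88*-/- value of the probe was raised, where lower, to the dimmest probe that its array showed well above background. With the main background correction Rpl3l was by this bound at least 2.18-fold lower under the *Myd88*-/- label. The bound was 1.23-fold without *Myd88*+/+ array 2 and 3.85-fold without *Myd88*+/+ array 1. Rpl3l entered the test only through the *Myd88*+/+ arrays, where it is higher, so its p-values (limma adjusted p = 0.238, and 0.000984 with median scaling) are favoured by that choice and belong to the measured difference, not to the bound. The measured log2 difference was -2.35, -1.53 without *Myd88*+/+ replicate 2, -3.17 without *Myd88*+/+ replicate 1 and -0.35 with normexp background correction. The value with normexp is smaller than 2.18-fold, so the bound does not hold under that setting.

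Skeletal muscle markers lay on the same side as Rpl3l. All 15 tested genes of that list, of 17 on the array, were lower under the *Myd88*-/- label, with a median log2 difference of -3.93, or -1.96 with normexp. Of the 15, 8 entered the test only through the *Myd88*+/+ arrays, where they are higher. Their side and calls were favoured by that choice, and the size of this median is uncertain. With cyclic loess the 7 genes kept were all lower, with a median of -3.52. Limma called 0 of the 15, and 13 after median scaling, where 1.80% of all genes were called. It called 1 each with normexp (0.354% of all genes) and with trended and robust spread (2.16%). Acta1 was the brightest marker on the *Myd88*-/- arrays and Myh4 on the *Myd88*+/+ arrays. The log2 of the summed signal of the 15 was 2.01 and 2.17 under the *Myd88*-/- label. It was 4.81 and 7.25 under the *Myd88*+/+ label. As with Rpl3l, *Myd88*+/+ array 2 was the highest of the 4. Every gene of the list was well above background on at least 1 array. The 3 heart muscle genes tested, of 6 on the array, had a median of -0.08, or 0.06 with normexp and 0.14 with cyclic loess, and 1 of them entered only through the *Myd88*+/+ arrays. The part of muscle tissue in the difference of Rpl3l was not tested, and in whole glands fewer cells of a type and less RNA per cell cannot be told apart. Rpl3, the parent gene, had log2 signals of 7.38 and 7.29 against 7.25 and 7.10, for a log2 difference of 0.16 (95% interval -0.16 to 0.49).

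**Figure D3:**
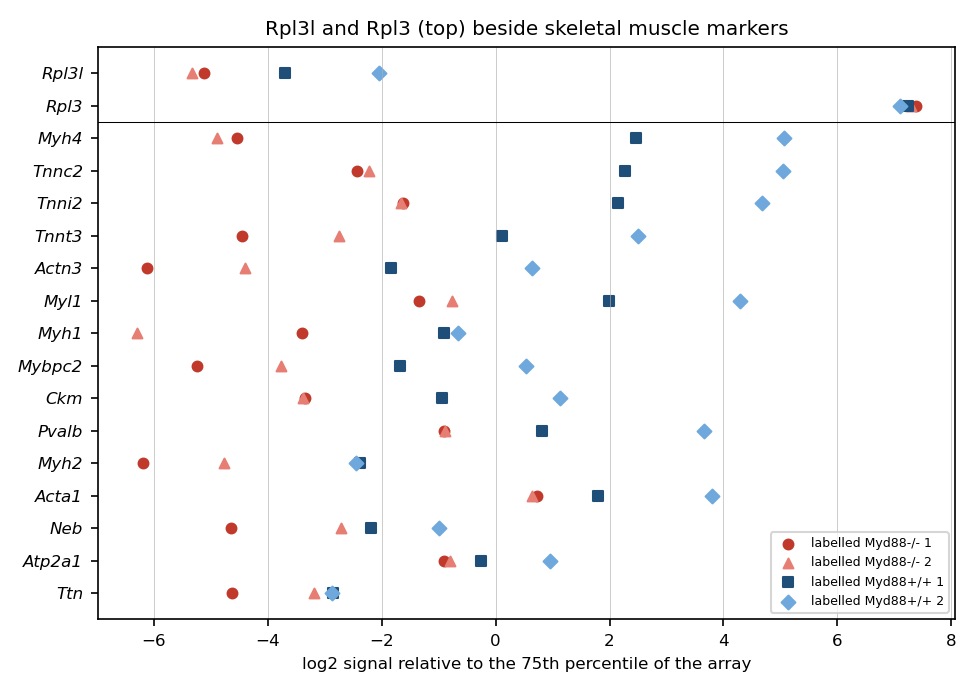
Log2 signal (horizontal axis) of Rpl3l and Rpl3 (top) and of the 15 tested skeletal muscle markers (below) on the 4 arrays. Rpl3l and the markers are lowest on the *Myd88*-/- arrays, with *Myd88*+/+ array 2 often highest, while Rpl3 lies between 7.10 and 7.38 on every array.

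Rpl39l, a copy of Rpl39 best known from the testis, had log2 signals of -3.25 and -3.94 under the *Myd88*-/- label and -2.28 and -2.28 under the *Myd88*+/+ label. It was well above background on both *Myd88*+/+ arrays and on *Myd88*-/- array 1. The labels were apart, but Rpl39l too was tested only because of the *Myd88*+/+ arrays, and its size is uncertain. The log2 difference was -1.32, -0.36 with normexp and -0.97 without *Myd88*-/- replicate 2. Rpl39 itself had 6.60 and 6.61 against 6.59 and 6.44, for a log2 difference of 0.09.

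Few testis germ cell markers were detected. Of 9 on the array 3 were tested, all of them well above background on the 4 arrays, with a median log2 difference of 0.27. The log2 of their summed signal was -1.09 and -0.65 against -0.86 and -1.08, with Prm2 as the brightest. Acrv1, Dazl, Ddx4 and Tnp2 were well above background on no array. Rpl10l, the testis copy of Rpl10, was well above background with its brighter probe on *Myd88*-/- array 2 and *Myd88*+/+ array 1, the arrays with the most detected probes, and could not be compared. Rpl10 had log2 signals of 9.05 and 8.96 against 8.88 and 8.83.

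Lymphocyte markers also lay on the side of Rpl3l and Rpl39l. All 9 tested B cell genes of 11 on the array and all 13 T cell genes of 15 were lower, with medians of -2.06 and -2.71, or -1.05 and -1.32 with normexp, where 12 of the 13 T cell genes were lower. The labels overlapped for 3 of the T cell genes, among them Cd4 at -0.04. The log2 of the summed signals of the B cell genes, led by Cd79b on the *Myd88*+/+ arrays, was 2.01 and 1.97 against 4.50 and 3.68. That of the T cell genes, led by Cd4, was 3.72 and 3.69 against 4.81 and 4.29. The 5 adipocyte genes tested of 6 (led by Fabp4, with Lep on no array above background) had a median of -0.76 and sums of 6.85 and 7.51 against 7.96 and 8.03. The 6 neutrophil genes of 7 (led by Elane) had -0.95 (-0.21 with normexp) with sums of 2.18 and 1.95 against 2.31 and 2.08, and the 8 macrophage genes (led by Itgam) -0.03 with 6.48 and 6.47 against 6.47 and 6.39. Of these lists 5 T cell, 3 B cell and 2 neutrophil genes were tested only through the *Myd88*+/+ arrays, where they are higher, which favoured their side. Limma called 0 T cell and 0 B cell genes, 9 and 5 after median scaling (1.80% of all genes), 4 and 6 with trended and robust spread (2.16%), and 1 and 3 with normexp (0.354%). By flow cytometry the study reports more B cells in SMGs of male *Myd88*-/- mice, the opposite side to the B cell genes here. The arrays are labelled as female and as SMGs plus SLGs. Sex and glands thus differ between these sources, and whether that accounts for the opposite sides was not tested. The study reports lower S100a8 and S100a9 in *Myd88*-/- SMGs by array, and by qRT-PCR in SMGs and SLGs. Both neutrophil genes were also lower here, at -1.54 and -1.45 (limma adjusted p = 0.323 and 0.296). S100a8 was well above background on only 1 *Myd88*-/- array and was tested only through the *Myd88*+/+ arrays. The study's array values may come from these same arrays. The study also describes removing lymph nodes and fat when the glands were dissected. The part of immune cells and adipocytes in any difference of a ribosomal protein gene was not tested.

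The remaining copies with their parents differed little, except Rps27l and Rps4y2. Rps27, the parent of Rps27l, had log2 signals of 7.91 and 7.89 against 7.88 and 7.79, for a log2 difference of 0.07 that was negative with quantile normalization and cyclic loess, where that of Rps27l was 0.24 and 0.21. Rpl36al and Rpl36a differed by 0.19 and 0.06, Rpl22l1 and Rpl22 by 0.08 and 0.05, and Rpl7l1 and Rpl7 by 0.19 and 0.13. The values of Rpl36a, Rpl22 and Rpl7 were negative with cyclic loess. Rps4y2, a copy of Rps4x whose probe is placed on chromosome 6, had 0.64 and 0.90 against 0.88 and 1.44, with overlapping labels. Its log2 difference was -0.39 (limma adjusted p = 0.493), against 0.13 for Rps4x, which was 0.02 with cyclic loess. Rpl36al, Rpl22l1, Rpl7l1 and Rps4y2 lie outside the naming rule.

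Several of these values are uncertain because ribosomal protein genes have many near-identical processed copies. For Rpl3, Rps27 and Rps4x the files place the brightest probe on another chromosome than that of the gene, so its signal may come from a copy. Probes of the same gene mostly lay on the same side, with 39 of the 55 members that have several tested probes showing the same side in all of them. Of 156 tested probes above a log2 signal of 4, 147 were higher under the *Myd88*-/- label, and of the 21 dimmer ones 5 were higher. These counts belong to the scaling by the 75th percentile, and cyclic loess turns most of the genes to the other side.

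Probes within a gene can be set against each other on the same array, which removes any shift common to the whole array. It does not remove a difference between arrays that varies with brightness. The median log2 difference was 0.10 for tested member probes above a log2 signal of 4, and -0.05 for the dimmer ones. Over 98 such ratios to the brightest probe of the gene, 7 changed by more than 0.3 log2 units between the labels, and in 6 the labels were apart. The largest decrease was in Rps24, a small subunit gene whose transcripts are spliced alternatively near the 3′ end. Rps24 was chosen for this after its values were seen. Its probes are placed on chromosome 14 (mm9, + strand), that for transcript variant 1 at chr14:25312695-25315015 across introns and that for variant 2 at chr14:25311190-25312666. Their first 30 bases are shown to tell the forms apart, with no part in capitals.
Rps24 variant 1 probe: aatgttggtgctggcaaaaagtgagtggag
Rps24 variant 2 probe: tggccattatgagaagaaaaagacctcccg

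The Rps24 variant 1 probe had log2 signals of 5.13 and 5.15 under the *Myd88*-/- label and 5.49 and 5.39 under the *Myd88*+/+ label. The brightest Rps24 probe, for variant 3, had 8.54 and 8.58 against 8.44 and 8.30. The former was lower and the latter higher on both *Myd88*-/- arrays. In limma's fit over single probes the log2 differences were -0.30 (SE 0.11, limma adjusted p = 0.359) and 0.19 (SE 0.12, limma adjusted p = 0.520).

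The ratio of these Rps24 probes was even between arrays of a label. It was -3.40 and -3.43 under the *Myd88*-/- label and -2.95 and -2.90 under the *Myd88*+/+ label. The labels were apart by far more than the SDs of 0.02 and 0.03, and the ratio changed by -0.49 log2 units, with values from -0.42 with quantile normalization to -0.49 across the settings tried. For variant 2 the ratio changed by -0.10 and for the second brightest probe by -0.05. The ratio shows unequal change of the probes, and does not show which of them differs.

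**Figure D4:**
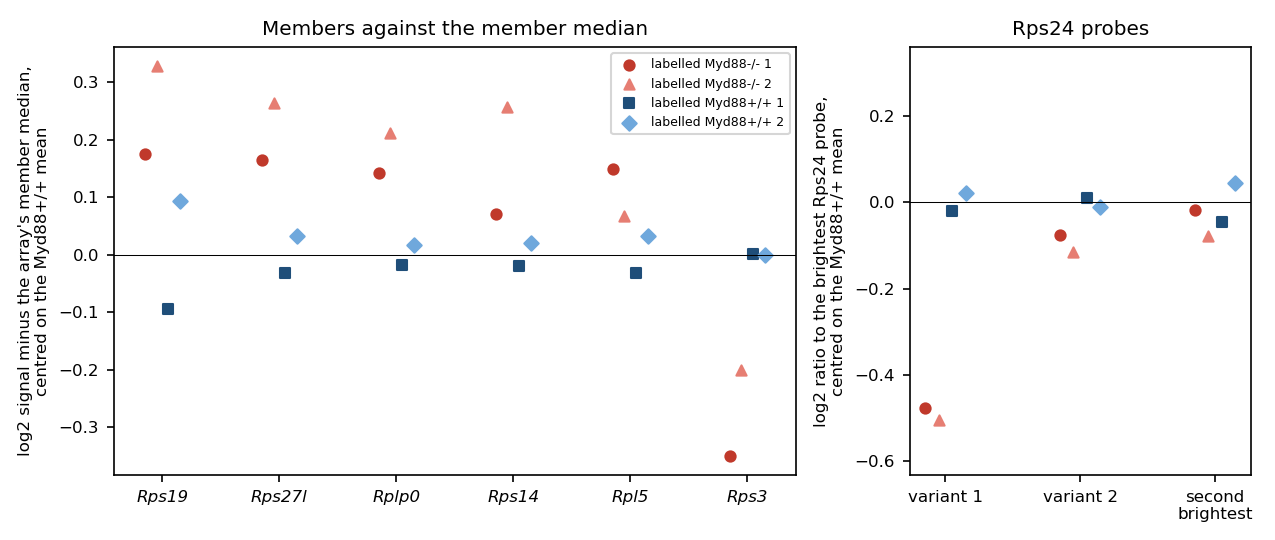
Left, log2 signal of 6 members minus the median member of the same array, centred on the *Myd88*+/+ mean (vertical axis). Right, log2 ratio of each other Rps24 probe to the brightest Rps24 probe, centred likewise on a scale of its own. The symbols for the 4 arrays show the variant 1 probe apart by -0.49 log2 units between the labels.

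Other ratios past 0.3 were found in Rpl15, Rpl13a, Rpl23, Rps3 and Rpl21, picked after their values were seen. The other probe of Rpl15, in the distal part of its transcript, had log2 signals of 1.66 and 1.43 against 1.78 and 1.88. Its ratio to the brightest probe changed by -0.39. For 2 probes of Rpl13a the ratio changed by -0.35 and -0.33, and for a probe of Rpl23 by -0.33. The *Myd88*-/- arrays were the lower ones for each. A probe of Rps3 went the other way by 0.53, with the labels apart, and a probe of Rpl21 by 0.75, with the labels overlapping. These ratios set a dim probe against a brighter one. Mean log2 signals were 1.7 against 6.9 for Rpl15, 2.4 against 8.2 for Rpl23 and 1.9 against 4.4 for Rps3. Values under other settings are given here for the Rps24 ratio only, and the part of brightness was not tested.

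The starts of the genes carried features that the naming rule did not use. Promoters from RefSeq (GRCm38.p6), 300 bases with 250 before the annotated start, were found for 60 of the 80 members and for 27025 genes in all. A C followed by 4 pyrimidines exactly at the annotated start, as in the TOP motif, was present in 13 of the 60 members (21.7%) and in 3.01% of all genes with a promoter. CCGGAAG on either strand, a sequence of the kind that ETS factors bind, was in 26 (43.3%) against 9.93%. The palindrome marked in the Rps19 window was in 6 (10.0%) against 0.525%, and AAGATGGC, part of the YY1 motif, in 5 (8.33%) against 3.19%. A match describes the letters and shows no binding. A pyrimidine run that begins off the annotated start was not counted, so members without a match are not shown to lack the TOP motif.

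Windows of 30 bases, 10 before and 20 from the start, are shown for 4 of the 13 members with the pyrimidine start and for 4 of the members that stood apart on the arrays. Capitals mark the pyrimidine run from the start or a motif named above. They lie at chr4:86857348-86857377 (- strand) for Rps6, chr3:90213629-90213658 (- strand) for Rps27, chr7:141447641-141447670 (+ strand) for Rplp2, chr11:114668570-114668599 (+ strand) for Rpl38, chr5:115559457-115559486 (+ strand) for Rplp0, chr7:24884582-24884611 (+ strand) for Rps19, chr9:66946076-66946105 (+ strand) for Rps27l and chr17:24727816-24727845 (+ strand) for Rpl3l (GRCm38.p6).
Rps6: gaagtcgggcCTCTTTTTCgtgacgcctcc
Rps27: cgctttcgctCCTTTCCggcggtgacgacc
Rplp2: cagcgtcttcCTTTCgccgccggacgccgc
Rpl38: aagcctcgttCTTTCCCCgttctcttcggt
Rplp0: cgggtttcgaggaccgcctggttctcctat
Rps19: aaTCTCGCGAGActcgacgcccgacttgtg
Rps27l: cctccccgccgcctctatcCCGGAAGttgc
Rpl3l: ttctagctctgtcatttgacctctggtgcc

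Members with and without these starts had similar median differences between the labels. The 13 members with the pyrimidine start ran from 0.00 (Rplp2) to 0.17 (Rpl38), with a median log2 difference of 0.09. The 46 other tested members with a promoter, which may carry such a run off the annotated start, had a median of 0.10. With and without CCGGAAG the medians were 0.09 and 0.10. No test was made of these medians.

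Genes that work with the ribosome were compared as lists, where the yardstick is all genes, with 59.6% higher and a median of 0.06. Among ribosomal proteins under other names Fau, a fusion of a ribosomal protein to a ubiquitin-like part, differed by 0.06, and Gnb2l1, the Rack1 scaffold of the small subunit, by 0.12. Of the 12 tested genes of this list, 3 of which are also members, 8 were higher (66.7%, against 93.7% of the members) and 0 were called. With quantile normalization 5 were higher and with cyclic loess 4 of 10.

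Other transcripts with a TOP motif had a median log2 difference of 0.10, with 15 of 20 higher and 0 called, and 10 of 20 with cyclic loess. Tpt1, a growth-related TOP gene, had log2 signals of 9.24 and 9.21 against 8.98 and 8.98. Snhg1 and Gas5, host genes of small nucleolar RNAs, had log2 differences of 0.33 and 0.28, and Ybx1 and Nap1l1 of -0.22 and -0.18. Tpt1 was apart between the labels, with a log2 difference of 0.24 (limma adjusted p = 0.335).

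Genes with an Eif name, most of them initiation factors, had a positive median under every scaling tried. The median log2 difference of the 56 tested genes was 0.20, and 45 were higher, from 37 of 54 to 42 of 56 in the other scalings. After adjustment 0 were called, and 13 had an unadjusted p under 0.05 and a positive difference against 1 with a negative one, where all genes gave 9.82% and 6.83%. A comparison with the ribosomal proteins was not tested. Eif2ak3, which is not an initiation factor but the kinase PERK of the endoplasmic reticulum stress response, had log2 signals of 3.50 and 3.40 against 2.85 and 2.75. The labels were far apart, with a log2 difference of 0.66 (SE 0.11, limma adjusted p = 0.199). With limma's trended and robust spread 1 gene of the list was called, where 2.16% of all genes were. The largest differences were in the dim Eif2c3, an Argonaute gene by function, and Eif5b at 0.94 and 0.91, and in Eif4e3 and Eif4enif1 at -0.65 and -0.23.

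Of the 13 elongation and release factors, 10 were higher, with a median of 0.12 and 0 called. Etf1, the release factor that reads stop codons, had 1.69 and 1.58 against 1.25 and 1.21, for a log2 difference of 0.41 (limma adjusted p = 0.233), and Abce1, which recycles ribosomes, differed by 0.22. Eef1a2, the form of muscle and nerve, and Gspt2 differed by -0.60 and -0.57 with overlapping labels. The positive median of this list held in all scalings tried, down to 0.02 with cyclic loess.

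Genes of ribosome assembly had a positive median too. The median log2 difference of the 76 tested was 0.15 with 67 higher, and 56 of 75 with cyclic loess. In limma 0 were called, and 8 (10.5%) had an unadjusted p under 0.05, all higher, near the 9.82% of all genes. Nop16, a nucleolar protein, had log2 signals of 1.76 and 1.54 against 1.28 and 1.05. Its log2 difference was 0.48 (SE 0.15, limma adjusted p = 0.267), that of Taf1a, of the RNA polymerase I factor SL1, was 0.46, and Polr1c and Nvl differed by -0.16 and -0.13.

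The ribosome of mitochondria was near level. Of 76 tested genes 42 were higher, with a median of 0.02, and 25 to 32 were higher in the other scalings. Mrps36 had log2 signals of 2.91 and 2.94 against 3.29 and 3.35. It was lower on both *Myd88*-/- arrays, with a log2 difference of -0.40 (SE 0.10, limma adjusted p = 0.230). Mrps9 differed by -0.28, and Mrps18b and Mrps10 by 0.27 and 0.26. In limma 0 genes of this list were called, and 0 were higher and 2 lower at an unadjusted p under 0.05, against 9.82% and 6.83% of all genes.

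Regulators of ribosomal protein synthesis gave a median of 0.04, with 12 of 19 higher. The median was -0.02 with cyclic loess, median scaling and the percentile over detected probes, each with 9 of 19 higher. Larp1, which binds the TOP motif, had log2 signals of 5.18 and 5.19 against 4.90 and 4.92. Eif4ebp1, the repressor of cap-dependent translation that mTOR inactivates, had 6.07 and 6.22 against 5.77 and 5.77, and both were higher on both *Myd88*-/- arrays. Their log2 differences were 0.27 (limma adjusted p = 0.299) and 0.38 (limma adjusted p = 0.257), that of Rheb, the activator of mTOR, was 0.36, and those of Trp53 and Tsc1 were -0.14 and -0.13. Of this list 0 genes were called by limma, and 4 were higher and 0 lower at an unadjusted p under 0.05, against 9.82% and 6.83% of all genes.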

How the data were processed

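RNA of whole SGs had been labelled with Cy3 and hybridized to 1-colour whole mouse genome arrays with probes placed on mm9. The authors deposited the output of Feature Extraction 10.7.3.1, whose processed signal is an intensity corrected for background by that software and not normalized between arrays. The deposited mean signal and local background intensities served an alternative. In a table of the whole series, 4 columns were not used, since they could not be assigned to single samples.

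Log2 intensities of 59305 spots were taken relative to the 75th percentile of each array. Outlier spots (99 to 131 per array) were left out, and no spot was saturated. Spots of a probe were averaged, and a probe counted as well above background if the flag was set on over 0.5 of its spots. The labels were compared in R 4.3.3 by limma 3.58.1 (lmFit, eBayes) over all 22312 genes, with Benjamini-Hochberg adjustment at 0.05. The procedure was tested on simulated data, and no result given here rests on that test.

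Genes were named by rule: tissue-restricted copies with their parents, the stalk, members with a second role, the 5 largest differences on each side with arrays apart (4 were lower), any called, the 2 largest on each side in each list, and Myd88. Members and lists were chosen with earlier results of these data known.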

Additional observations from a re-analysis of the deposited data

How the results depend on the processing

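Among the values of 25 named ribosomal protein genes under other settings, 380 kept their side, 40 turned to the other side and 1, Rpl3l with median scaling (-2.40), passed the threshold. The cause of these changes was not tested. Many of the 380 could not have turned. The spread setting, the methods' t-test, the blocks and the filters change the test or the genes included, and left these differences at their main values. The median log2 difference of the ribosomal protein genes, 0.10, was 0.015 with quantile normalization, 0.043 with the 75th percentile over detected probes and -0.025 with cyclic loess, which left 23 of 77 higher. Median scaling called 1 member and 402 of all genes (1.80%), and normexp 0 members and 79 genes.

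With normexp the differences of Rplp2 (-0.056), Rpl11 (-0.0061), Rpl13a (-0.0015) and Rpsa (-0.0071) were negative. Quantile normalization turned Rpl10 (-0.0021), Rps27 (-0.046), Rpl22 (-0.019), Rpl36a (-0.019), Rplp1 (-0.027), Rplp2 (-0.10), Rpl11 (-0.059) and Rpsa (-0.075). The percentile over detected probes turned Rpl22 (-0.012), Rplp2 (-0.054), Rpl11 (-0.015) and Rpsa (-0.0019), and median scaling Rpl22 (-0.0062), Rplp2 (-0.048) and Rpl11 (-0.0089). Cyclic loess turned Rpl39 (-0.029), Rps27 (-0.062), Rpl22 (-0.070), Rpl7 (-0.0014), Rpl36a (-0.042), Rplp1 (-0.054), Rplp2 (-0.13), Rpl11 (-0.089), Rps6 (-0.026), Rpl13a (-0.042) and Rpsa (-0.079), and the mean of a gene's probes Rpl22 (-0.00063), Rpl13a (-0.15) and Rpsa (-0.0081).

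Without each array in turn the median ran from 0.07 to 0.13 and the count higher from 63 to 74, with 0 called. Rplp2 ran from -0.015 to 0.023, Rpl11 from -0.021 to 0.11, Rps2 from -0.030 to 0.045 (the brightest probe was chosen anew, and the positive value is of another probe), Rpl36a from -0.0010 to 0.13 and Rpl13a from -0.052 to 0.21.

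The labels do not say that a shared replicate number joins arrays, and deviations of same-numbered arrays correlated at -0.373 over all genes. With the replicate number as a replicate block, in which arrays are paired, the median was 0.10 with 74 higher and 0 called. With crossed blocks 0 were called. Comparing arrays with like numbers of detected probes, an alternative chosen after seeing the data, gave medians of 0.15 (75 higher) and 0.05 (59 higher). All genes gave medians of 0.05 and 0.07 in these pairs. Pairs of arrays within a label had 63 and 60 members higher. Trended and robust spread called 0 members and 482 of all genes (2.16%), with 11 members higher and 2 lower at an unadjusted p under 0.05, against 12.4% and 7.68% of all genes. The methods' t-test, adjusted alike, called 0 members. A fit over single probes, also chosen after seeing the data, called 0 of 177 member probes.

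With 2 arrays per label on a single slide, small differences in either direction would be missed, and label and mouse cannot be separated. The side of most members turned only with cyclic loess. Whether probes take signal from processed copies was not tested, dim copies such as Rpl3l rest on few arrays above background, and bulk RNA mixes cell types.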
